A study of Rattus norvegicus with 4 samples.

Results

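Adhesion genes by which Schwann cells and axons hold on to each other were examined in unmodified S16 cells, an immortalized rat Schwann cell line grown in culture. They were Gldn, Ncam1, L1cam, Chl1, Nfasc, Nrcam, Cntn1, Cntn2, Cntnap1 and Cntnap2, the 10 members taken by symbol, with no use of measured values, from the 30708 genes listed in each file. Poly(A) RNA-Seq had been run on 2 S16 populations. The passage 9 population had served as the parent of the mutant cells of the study, and the other was at passage 39. Each population gave 2 libraries, labelled technical replicate 1 and technical replicate 2, so that 4 libraries were compared. The labels describe the source as myelinating Schwann cells, and neither population carried an edit or received a treatment. Neurons are not mentioned in the culture protocol, and the values therefore describe a cell line in serum-containing medium and not Schwann cells in a nerve.

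Myelinated axons are divided into domains by contacts with Schwann cells. At the node of Ranvier, gliomedin (Gldn), which is made by the Schwann cell and held at its microvilli, binds neurofascin (Nfasc) and NrCAM (Nrcam) on the axon and gathers sodium channels there. At the flanking paranodes, a glial form of neurofascin faces an axonal complex of contactin-1 (Cntn1) and Caspr (Cntnap1). At the juxtaparanodes, contactin-2 (Cntn2, also called TAG-1) lies on both membranes and associates with Caspr2 (Cntnap2) and potassium channels. NCAM (Ncam1) and L1 (L1cam) are carried by immature and non-myelinating Schwann cells, and Chl1 is the close homolog of L1. Chl1, L1cam, Nfasc and Nrcam form the L1 family. The label of immunoglobulin genes fits 7 of the 10, since gliomedin has an olfactomedin domain and the Caspr proteins belong to the neurexin superfamily.

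Values were RPKM, that is read counts divided by gene length in kilobases and by the library total in units of 1000000, and levels of different genes were compared only on this scale. Reads and library totals were recovered from the RPKM values, and the totals lay between 34246093 and 41382234 reads. Each of these totals is above the number of reads per cell line that the authors reported, and the reason was not tested. All read counts and intervals here rest on the recovered totals. For the level in 1 library the 95% interval is the exact Clopper-Pearson interval, and intervals here include only the error of counting. Libraries with the same technical replicate number lay closer to each other than the libraries labelled as replicates of one passage. Across 11025 genes whose mean reached 1 RPKM, the median absolute difference on the log2(RPKM + 1) scale was 0.027 between passages and 0.21 between technical replicate numbers. The labels give no difference between the 2 numbers, so a library batch, labels exchanged between libraries and any other cause cannot be told apart. The libraries are named here as labelled, and each ratio between passages or numbers and each SD over passages has its stated meaning only if the labels are right. The cell type was checked on marker lists. All 9 Schwann cell markers had a mean of at least 1 RPKM, and Pmp22, a peripheral myelin protein, lay between 1216 and 1293 RPKM. Of 6 markers of immature Schwann cells, 4 had a mean of at least 1 RPKM. These were Ngfr at 283, Sox2 at 42.1, Jun at 24.6 and Gfap at 12.7 RPKM. Gap43, of the same list, was listed at 0 in every library, which is not read as absence. Of the 10 neuronal markers, 1 reached a mean of 1 RPKM, the neurofilament gene Nefl, and Syt1, Stmn2 and Elavl4 were listed at 0 throughout. The summed level of the neuronal list was 112 and 116 RPKM in the technical replicate 1 libraries and 74.6 and 72.7 RPKM in the technical replicate 2 libraries, nearly all of it Nefl. Of 6 oligodendrocyte markers 3 reached a mean of 1 RPKM, Mog at 7.98, Nkx2-2 at 4.80 and Olig2 at 1.04 RPKM. Opalin and Olig1 of this list were at 0, and its sums lay between 12.3 and 15.7 RPKM. Of 5 fibroblast markers 2 reached it, Col1a1 at 3588 and Pdgfra at 5.35 RPKM. The sums of the fibroblast list lay between 3349 and 3884 RPKM, nearly all Col1a1, with Dcn at or below 0.0132 RPKM. The part of these markers in the results was not tested.

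S16 cells expressed 3 of the 10 genes strongly, 3 at a few RPKM and 4 at or near 0. Gldn, L1cam and Ncam1 had means between 48.4 and 85.6 RPKM, Cntn2, Chl1 and Cntnap1 between 1.36 and 4.29 RPKM, and Nfasc, Nrcam and Cntnap2 between 0.0903 and 0.164 RPKM. Cntn1 was listed at 0. The strongly expressed group thus held the nodal ligand of the Schwann cell and the adhesion proteins of immature cells, while the neurofascin and NrCAM that gliomedin binds were near the lower end. Of the 10 genes, 6 had a mean of at least 1 RPKM. Chl1 was among them because of its technical replicate 1 libraries, since its mean over the technical replicate 2 libraries was 0.939 RPKM. Cntnap1 was among them because of its technical replicate 2 libraries, since its mean over the technical replicate 1 libraries was 0.930 RPKM.

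**Figure D1:**
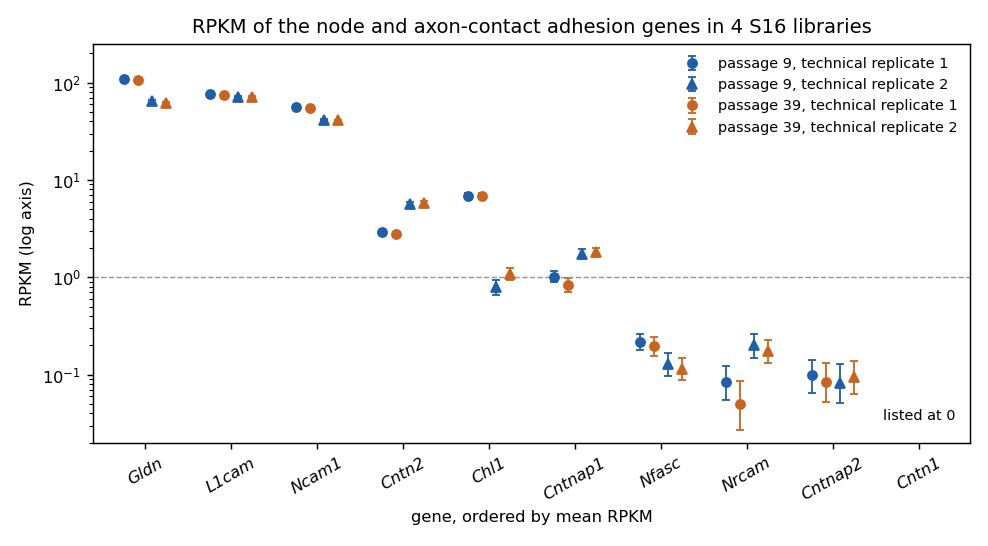
RPKM (log axis) of the 10 genes in the 4 libraries, ordered by mean RPKM, with bars for the exact 95% counting interval of each library and a dashed line at 1 RPKM. Colours mark the passage and symbols the technical replicate number, and equal symbols are drawn side by side. Circles and triangles of Chl1 lie far apart, near 6.9 RPKM against 0.787 and 1.09 RPKM, while those of Cntnap2 overlap in level.

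Gldn was the most strongly expressed of the 10 genes, at 85.6 ± 1.26 RPKM (SD, n = 2 passages), which placed it 724th of the 30708 genes in the files. Technical replicate 1 gave 108.7 RPKM at passage 9 and 107.8 RPKM at passage 39, and technical replicate 2 gave 64.3 and 61.7 RPKM. Both technical replicate 1 libraries lay above both technical replicate 2 libraries, so the passages had to overlap. The ratio of technical replicate 2 to technical replicate 1 was 0.592 at passage 9 (95% counting interval 0.573 to 0.612, from 5383 and 10725 reads) and 0.572 at passage 39 (0.554 to 0.591, from 6043 and 8801 reads). On the log2(RPKM + 1) scale the difference was -0.77, and 1.58% of the genes tested had a lower value. Between passages the ratio was 0.992 (0.964 to 1.02) in technical replicate 1 and 0.959 (0.924 to 0.995) in technical replicate 2.

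Ncam1 and L1cam followed, at 48.4 ± 0.246 and 73.8 ± 0.516 RPKM (SD, n = 2 passages for each). L1cam read 76.2 RPKM (passage 9) and 75.1 RPKM (passage 39) in technical replicate 1, and 72.1 and 71.8 RPKM in technical replicate 2. It was the steadiest of the strongly expressed genes, with ratios of technical replicate 2 to 1 of 0.946 (0.925 to 0.968) and 0.956 (0.934 to 0.978) at passages 9 and 39. Ncam1 read 55.7 and 55.4 RPKM in technical replicate 1, and 41.5 and 41.1 RPKM in technical replicate 2. The ratio of Ncam1 was 0.744 (0.729 to 0.759) at passage 9 and 0.742 (0.727 to 0.757) at passage 39. For both genes the technical replicate 1 libraries thus lay above the technical replicate 2 libraries, by less for L1cam than for Ncam1. Between passages all 4 ratios of these 2 genes lay between 0.985 and 0.995, and each interval held 1. St8sia2 and St8sia4, the enzymes that add polysialic acid to NCAM, were listed at 0 in every library.

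Chl1 differed most between the libraries. It was at 6.91 RPKM in technical replicate 1 of passage 9 (1232 reads) and at 6.92 RPKM in technical replicate 1 of passage 39 (1020 reads), but at 0.787 RPKM (119 reads) and 1.09 RPKM (193 reads) in the technical replicate 2 libraries of these passages. Technical replicate 1 was 8.78-fold higher at passage 9 (7.27 to 10.7) and 6.34-fold higher at passage 39 (5.43 to 7.43). The 2 pairs of libraries did not overlap, and the mean of 3.93 ± 0.108 RPKM (SD, n = 2 passages) describes none of the 4 libraries. The difference of -2.03 on the log2(RPKM + 1) scale ranked 9 from the lowest among 11025 genes. Chl1 was among these genes only through technical replicate 1, where it was high, so the rank is a description. Within technical replicate 1 the passages had a ratio of 1.00 (0.920 to 1.09), and within technical replicate 2 the ratio was 1.39 (1.10 to 1.76), with passage 39 higher. L1cam exceeded its homolog 11.0-fold and 10.9-fold in the technical replicate 1 libraries of passages 9 and 39, and 91.6-fold and 65.8-fold in the technical replicate 2 libraries.

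Nfasc and Nrcam, the axonal receptors of gliomedin in a nerve, were near the limit of what these libraries could resolve. Nfasc, whose shorter form is also made by myelinating glia, read 0.216 RPKM (passage 9, 115 reads) and 0.195 RPKM (passage 39, 86 reads) in technical replicate 1, and 0.129 RPKM (58 reads) and 0.116 RPKM (61 reads) in technical replicate 2. The files give 1 value per gene, so the glial and the axonal form could not be separated. Its ratio of technical replicate 2 to 1 was 0.595 (0.426 to 0.822) at passage 9 and 0.591 (0.419 to 0.830) at passage 39. Nrcam read 0.0831 RPKM (26 reads) and 0.0502 RPKM (13 reads) in technical replicate 1, and 0.200 RPKM (53 reads) and 0.174 RPKM (54 reads) in technical replicate 2. It was thus higher in technical replicate 2, 2.40-fold (1.48 to 4.005) at passage 9 and 3.46-fold (1.86 to 6.92) at passage 39, the opposite direction to Nfasc. Gldn exceeded Nfasc between 499.9-fold and 551.2-fold and Nrcam between 321.9-fold and 2146-fold in the 4 libraries.

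Of the contactins, which are held in the membrane by a lipid anchor, Cntn2 was expressed and Cntn1 was listed at 0 in every library. Such a 0 is given here as a listing and not as absence, because Rps6 and Rplp2, which encode ribosomal proteins, also stood at 0 in all 4 libraries. These 2 genes were chosen after their values were seen. Cntn2 read 2.89 RPKM (passage 9, 1151 reads) and 2.77 RPKM (passage 39, 913 reads) in technical replicate 1, and 5.67 RPKM (1913 reads) and 5.84 RPKM (2308 reads) in technical replicate 2. Both technical replicate 2 libraries lay above both technical replicate 1 libraries, 1.96-fold (1.82 to 2.11) at passage 9 and 2.11-fold (1.95 to 2.28) at passage 39. The mean was 4.29 ± 0.0188 RPKM (SD, n = 2 passages). On the log2(RPKM + 1) scale the difference was 0.82, and 0.762% of the genes tested had a higher value. The ratio of the mean RPKM values was 2.03. Between passages the ratio of Cntn2 was 0.959 (0.878 to 1.05) and 1.03 (0.970 to 1.10) in technical replicates 1 and 2.

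Cntnap1, whose protein reaches the axon surface in a complex with contactin-1, read 1.02 RPKM (passage 9) and 0.841 RPKM (passage 39) in technical replicate 1, and 1.75 and 1.84 RPKM in technical replicate 2. It was higher in technical replicate 2, 1.72-fold (1.45 to 2.04) at passage 9 and 2.18-fold (1.81 to 2.64) at passage 39, as Cntn2 was. The mean was 1.36 ± 0.0301 RPKM (SD, n = 2 passages). In the RefSeq annotation of GRCr8, Cntnap1 overlaps Ccr10, which was at 0.117 to 0.249 RPKM. Counting without strand cannot tell reads of these genes apart where they overlap. Cntnap2, the partner of Cntn2 at juxtaparanodes, read 0.0983 and 0.0848 RPKM in technical replicate 1, and 0.0828 and 0.0954 RPKM in technical replicate 2, from 20 to 28 reads. No difference in Cntnap2 was detectable at this depth, as its ratios of technical replicate 2 to 1 were 0.842 (0.450 to 1.55) and 1.13 (0.608 to 2.12). Cntn2 exceeded Cntnap2 between 29.4-fold and 68.5-fold in the 4 libraries.

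The promoters of the genes with the largest differences on the log2 scale among those past 1 RPKM, namely Chl1, Cntn2 and Gldn, are shown because they differ in direction, Chl1 and Gldn being lower and Cntn2 higher in technical replicate 2. The sequences are from RefSeq on GRCr8 and run from 250 bases before to 50 bases after the annotated start, whereas the reads had been aligned to rn5. RNA-Seq values of these files do not show which start was used in S16 cells. Among the 10 genes, 5 had an entry in the table. Capitals mark a match to ACAAAG, a core recognised by SOX proteins, on either strand.
Chl1 at chr4:137847645-137847944, plus strand: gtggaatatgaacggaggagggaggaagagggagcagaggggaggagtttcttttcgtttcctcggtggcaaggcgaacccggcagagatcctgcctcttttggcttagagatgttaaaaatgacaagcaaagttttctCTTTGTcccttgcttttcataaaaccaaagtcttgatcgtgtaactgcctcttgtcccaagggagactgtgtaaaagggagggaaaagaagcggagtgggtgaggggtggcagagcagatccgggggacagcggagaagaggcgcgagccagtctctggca
Cntn2 at chr13:46527976-46528275, minus strand: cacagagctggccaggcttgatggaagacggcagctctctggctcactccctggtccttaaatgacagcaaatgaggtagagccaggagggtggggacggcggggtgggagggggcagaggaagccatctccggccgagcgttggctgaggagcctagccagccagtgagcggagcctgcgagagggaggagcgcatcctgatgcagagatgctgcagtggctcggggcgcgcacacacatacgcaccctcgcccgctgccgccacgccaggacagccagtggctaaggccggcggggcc
Gldn at chr8:63575020-63575319, plus strand: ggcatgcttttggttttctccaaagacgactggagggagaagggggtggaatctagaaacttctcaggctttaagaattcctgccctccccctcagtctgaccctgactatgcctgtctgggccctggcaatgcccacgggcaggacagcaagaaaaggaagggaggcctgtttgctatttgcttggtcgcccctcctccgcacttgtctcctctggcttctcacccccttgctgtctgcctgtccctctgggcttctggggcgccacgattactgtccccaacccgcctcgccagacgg
Chl1 held 1 match to ACAAAG, on the reverse strand, which began 111 bases before the annotated start, and ACAAAG was found in 18.8% of all 33469 promoter windows. Neither GTGGGCG, a core recognised by EGR proteins and present in 7.12% of windows, nor TATAAA, present in 14.2%, was found on either strand of the 3 windows. The Cntn2 window was the richest in CpG, with 19 CpG dinucleotides and 67.0% G and C, against 11 and 52.3% for Chl1 and 9 and 58.7% for Gldn. The median over all windows was 7 CpG dinucleotides and 51.7% G and C. The paper defined SOX10 sites by other, shorter sequences, which capitals do not mark. Each of the 3 windows holds at least 1 of those shorter sequences on one strand or the other. The match found only in Chl1 thus depends on the pattern chosen and is not read as a difference between the genes. These matches are descriptions of the letters and were not compared with binding data.

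The first comparison, between passages, asked whether the older population had another level of these genes. None of the 6 genes past 1 RPKM differed 2-fold between passage 39 and passage 9 on the log2(RPKM + 1) scale, against 0.00907% of the 11025 genes (1 gene). The values of the passages overlapped for each of the 6 genes, and they did not overlap for 6.21% of all genes tested. For each of the 6, both libraries of one technical replicate number lay above both of the other number. The passages then had to overlap, so nothing about passage is read from this overlap. An interval that excluded 1 in the same direction in both technical replicates was found for none of the 6 genes and for 0.444% of all genes tested. With 1 population per passage the difference has no replicate check, and no p-values were computed. The median difference was -0.012 over the 6 genes and -0.0021 over all genes tested. The ratios of passage 39 to passage 9 are shown beside those of technical replicate 2 to 1.

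**Figure D2:**
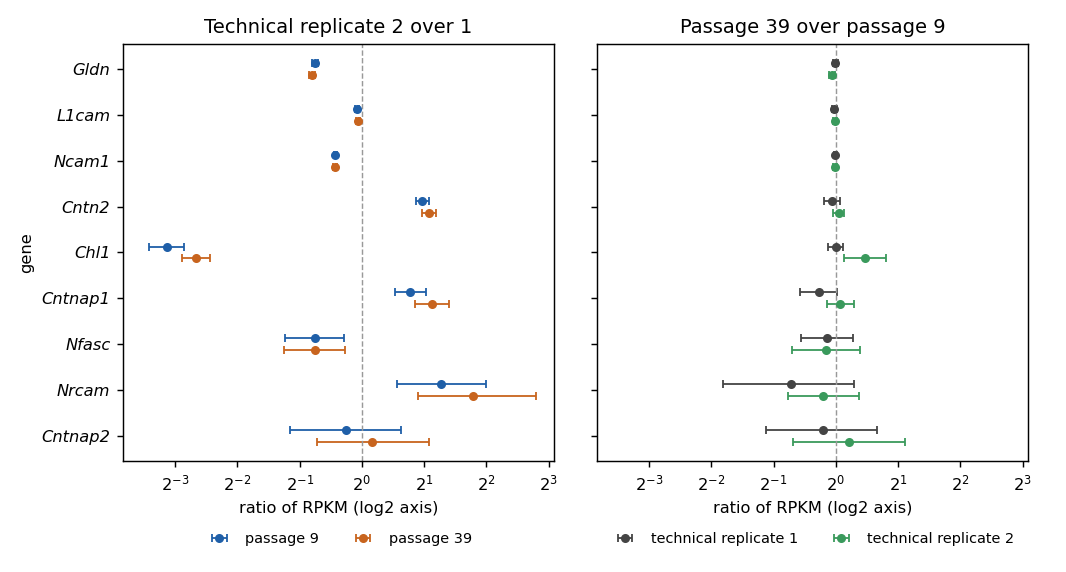
Ratios of RPKM (log2 axis) of 9 genes with exact 95% counting intervals, for technical replicate 2 over 1 at each passage (left) and passage 39 over passage 9 in each technical replicate (right), with a dashed line at a ratio of 1. On the left, the intervals of every gene but Cntnap2 lie to one side of 1 at both passages, and on the right those of Chl1 and Gldn in technical replicate 2 do not reach it.

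The second comparison was by technical replicate number. Of these genes, 1 was at least 2-fold lower in technical replicate 2 on the log2(RPKM + 1) scale, Chl1, against 0.726% of all genes tested, and none was at least 2-fold higher, against 0.363%. Chl1 passed the minimum only through technical replicate 1, so nothing is read from this count beside the background. Over all genes these shares were 80 lower and 40 higher genes, and they became 112 and 29 after median-ratio scaling. Both technical replicate 2 libraries lay below both technical replicate 1 libraries for 4 genes, Gldn, Ncam1, L1cam and Chl1, and for 30.5% of all genes tested. They lay above them for the other 2, Cntn2 and Cntnap1, and for 57.2% of all genes. Cntnap1 had passed the minimum only through technical replicate 2, and its place in this count is likewise a description. The same 4 and 2 genes had counting intervals that excluded 1 at both passages, which held for 21.6% of all genes tested in the lower and 41.6% in the higher direction. The sizes of the differences varied from -0.07 for L1cam to -2.03 for Chl1. The median difference was -0.25 over the 6 genes, against 0.10 over all genes tested. The median absolute difference was 0.65, against 0.21. Both medians include Chl1 and Cntnap1, which passed the minimum only through the number where each was higher. Nothing is therefore read from these medians beside the background. After rescaling the libraries to a common sum of 1000000, the median over all genes past the minimum was -0.032. The minimum and pseudocount of 1 were kept on these larger values, so 12406 genes passed in place of 11025. No gene of the 6 changed direction under either scaling.

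**Figure D3:**
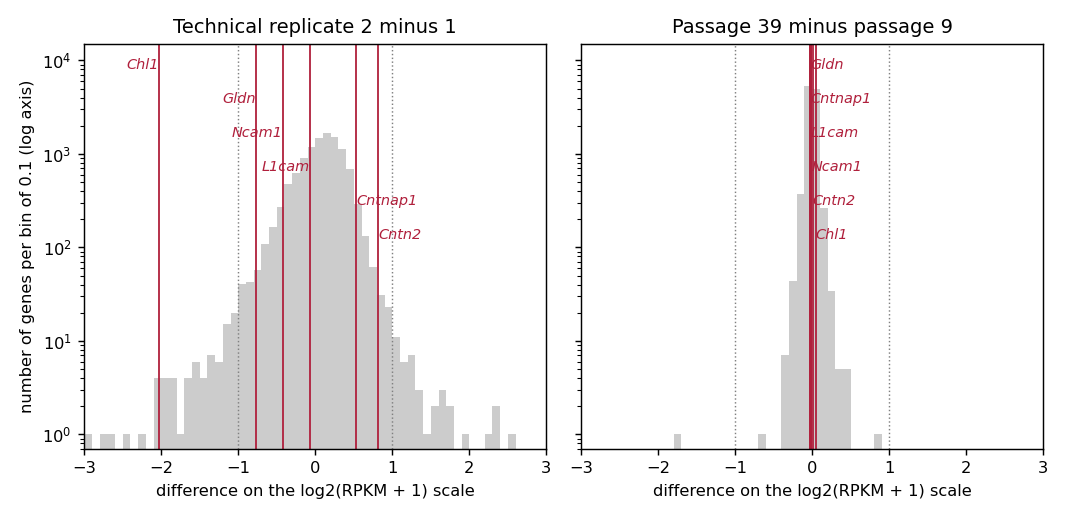
Number of genes (log axis, bins of 0.1) by difference on the log2(RPKM + 1) scale for the 11025 genes whose mean reached 1 RPKM, by technical replicate number (left) and by passage (right), with red lines for the 6 genes past this minimum and dotted lines at a 2-fold difference. Values beyond 3 are drawn in the outermost bin. Chl1 at -2.03, which passed the minimum only through technical replicate 1, lies in the lower tail on the left, and all 6 lie near 0 on the right.

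The order of the 10 genes depended on the technical replicate number. Gldn exceeded L1cam 1.43-fold in both technical replicate 1 libraries but was at 0.892 and 0.859 of its level in the technical replicate 2 libraries of passages 9 and 39. Chl1 was above Cntn2 in technical replicate 1, where the ratio of Cntn2 to Chl1 was 0.418 and 0.401, and below it in technical replicate 2, where the ratio was 7.20 and 5.35. In technical replicate 2 Chl1 also lay below Cntnap1. Nfasc exceeded Nrcam 2.60-fold and 3.89-fold in technical replicate 1, and was at 0.644 and 0.665 of its level in technical replicate 2, where their intervals overlapped. The order of Gldn and L1cam, of Cntn2 and Chl1, and of Nfasc and Nrcam was thus not the same in the 4 libraries. L1cam, by contrast, was above Ncam1 in every library, between 1.35-fold and 1.75-fold.

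Differences by technical replicate number varied with gene length, so they were also taken relative to genes of similar recovered length. For Chl1, with a length of 4307 bp, the difference was -2.04 in place of -2.03. For Ncam1, the longest of the 6 at 10800 bp, it was -0.20 in place of -0.42, and the genes of similar length had a median of -0.22. For Cntn2, at 9622 bp, it was 1.04 in place of 0.82, which passed the 2-fold limit. Gldn moved to -0.91, L1cam to -0.085 and Cntnap1 to 0.58. Each of the 6 genes kept its direction.

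Partners of these genes were taken from lists that were chosen with earlier results of these data known. Of 10 relatives of the contactin, Caspr and NCAM families, 9 were listed and none reached a mean of 1 RPKM. Ncam2, Cntn3, Cntnap4, Cntnap5a, Cntnap5b and Cntnap5c were listed at 0, and Cntn6 was the highest at 0.195 to 0.331 RPKM. Of 17 cytoskeletal anchors, such as the ankyrins and spectrins to which L1 family proteins are tied, 13 had a mean of at least 1 RPKM. None of the 13 differed 2-fold by number or by passage. The intervals excluded 1 at both passages for 6 lower and 6 higher genes, against 21.6% and 41.6% of all genes tested. Msn, which encodes the moesin of Schwann cell microvilli, was at 275 to 287 RPKM and Sptbn1, a beta spectrin, at 187 to 220 RPKM. Ank3, which encodes the ankyrin G of nodes, had the largest difference of the list, with 13.9 and 14.4 RPKM in technical replicate 1 and 9.86 and 10.2 RPKM in technical replicate 2.

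Among 16 glial and matrix partners, 9 had a mean of at least 1 RPKM. Of all genes tested, 0.726% were at least 2-fold lower in technical replicate 2 and 0.363% at least 2-fold higher. Of the 9 partners, 2 were at least 2-fold lower and none higher. These were Tnc, the matrix protein tenascin-C, with 80.9 and 81.0 RPKM against 30.2 and 30.5 RPKM, and Cadm1, an adhesion protein of the internode, with 15.4 and 15.9 RPKM against 5.65 and 5.42 RPKM. Cadm4, the main Schwann cell adhesion protein of that family, was at 1087 to 1119 RPKM with a difference of -0.017. Ncan was listed at 0. The median of this list was -0.37. Of 11 genes for the processing and signalling of NCAM and L1 proteins, 9 passed the minimum and 1 was at least 2-fold lower, Gfra1, a co-receptor that also binds NCAM, with 23.2 and 22.9 RPKM against 10.3 and 9.94 RPKM. Bmp1, a protease that cleaves gliomedin, was at 55.9 to 57.9 RPKM. Of 9 axonal channel genes, 1 passed the minimum, and Kcna1, which encodes a potassium channel of juxtaparanodes, was listed at 0. Among the 9 Schwann cell markers, 2 were at least 2-fold lower in technical replicate 2 and none higher, and the median difference was -0.51. The differences ran from -1.39 for S100b to 0.73, and counting intervals excluded 1 at both passages for 6 lower and 3 higher markers, Pmp22 at 0.080 among the higher. Among 6 markers of immature Schwann cells, 4 passed the minimum, none differed 2-fold and the median difference was -0.18. In technical replicate 2, Chl1, Gldn, Ncam1 and L1cam were lower, and Cntn2 and Cntnap1 were higher. The 6 lower and 3 higher Schwann cell markers stand against 21.6% lower and 41.6% higher among all genes tested. The part of these genes in one another was not tested.

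**Figure D4:**
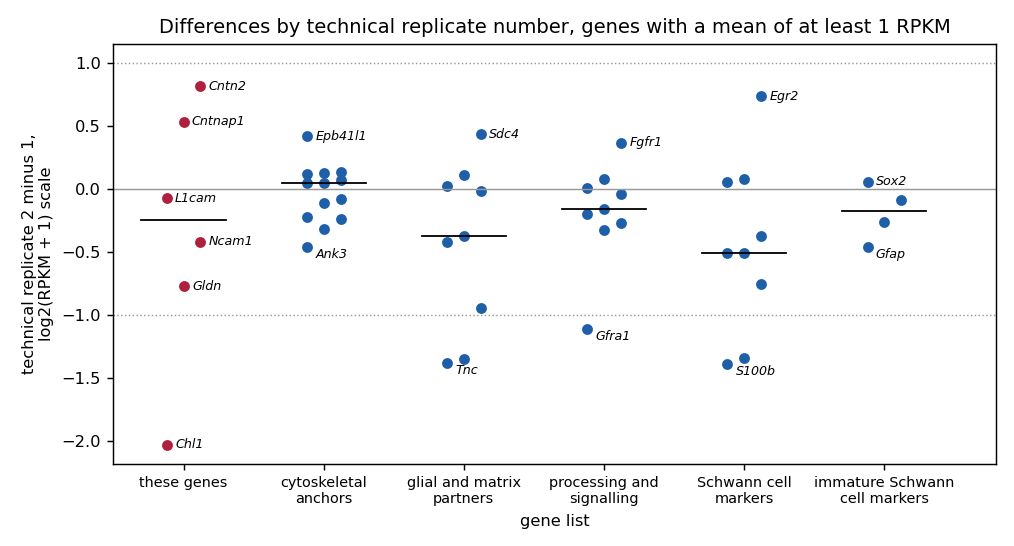
Differences of technical replicate 2 minus 1 on the log2(RPKM + 1) scale for genes whose mean reached 1 RPKM, for the 6 adhesion genes (red) and 5 lists (blue), with names at the lowest and highest gene of each list, black bars for medians and dotted lines at a 2-fold difference. Chl1 lies at -2.03, below the lowest genes of the lists, which are S100b at -1.39 and Tnc at -1.38. Chl1 passed the minimum only through technical replicate 1 and Cntnap1 only through technical replicate 2. Their places and the median of the 6 genes are therefore descriptions.

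The genes with the most similar profile were sought for the most strongly expressed and the most variable gene, among 8086 genes whose mean reached 5 RPKM, by Euclidean distance over the 4 libraries of the centred log2(RPKM + 1) values. For Gldn, the nearest 3 included Klf7, a transcription factor (distance 0.028), and Aspm, a spindle protein (0.030). For Chl1 they were Atp10b, a lipid-transporting ATPase (0.12), Ednrb, the endothelin receptor B (0.16), and Reln, which encodes reelin (0.17). Ednrb was at 21.2 and 21.7 RPKM in technical replicate 1 and at 4.27 and 4.33 RPKM in technical replicate 2. Reln was at 41.4 RPKM in both technical replicate 1 libraries and at 9.78 RPKM in both technical replicate 2 libraries. These distances rest on 4 libraries that fall into pairs by number, and describe likeness in these libraries only.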

How the data were processed

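S16 libraries had been made by the authors from poly(A) RNA with TruSeq and sequenced as 50 bp single ends, with technical replicates pooled and run over 2 lanes. Reads were aligned to rn5 with STAR, restricted to unique alignments and counted per gene with HTSeq without strand, and FastQC was used for quality. Versions are not given in the sources used here. The authors deposited RPKM values per gene symbol, without gene lengths or totals, and no counts were used. The file names point to RefSeq models where the methods name Ensembl. From these values, library totals and whole reads were recovered with scipy 1.17.1, pandas 2.3.3 and numpy 2.4.6 under Python 3.11.15. For each gene the smallest whole length was taken that gave whole reads in all libraries, so a factor common to them can remain hidden. This was found for all 18114 genes above 0 in at least 2 libraries, and the method was tested on simulated data. Ratios of 2 libraries have exact conditional binomial intervals.

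Libraries were grouped by passage and by technical replicate number. Means were taken over the 2 libraries of a passage first, and the SD over the 2 passages. Differences used a pseudocount of 1 RPKM, which understates changes of low genes. The genes tested were those whose mean reached 1 RPKM. A difference of at least 2-fold was called, without a p-value, because the libraries of a passage are technical replicates. The members, lists and tests were chosen with earlier results of these data known. The rule for named genes covered the 10 members, of each list the 2 highest genes, the 2 with the largest difference by number and any listed at 0, and the 3 genes most like 2 members. Epb41 and Cntnap3 were not listed. Some genes that this rule covers are not reported here. Figures were drawn with matplotlib 3.10.9. The mutant libraries and the clonal expansions were not analysed here.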

Additional observations from a re-analysis of the deposited data

Results flagged for a closer look

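The following values had opposite directions in the 2 groups of one contrast, and the differences between groups were not tested. From passage 9 to passage 39, Cntn2 differed by -0.045 in technical replicate 1 and by 0.037 in technical replicate 2 on the log2(RPKM + 1) scale, a gap of 0.082. Cntnap1 differed by -0.13 and 0.047, a gap of 0.18. Cntnap2 differed by -0.018 and 0.017, a gap of 0.035. The difference of Cntnap2 between technical replicates 2 and 1 was -0.020 at passage 9 and 0.014 at passage 39, also a gap of 0.035. The counting intervals of the ratios behind all 8 values included 1. Groups of 2 libraries were too small to look for a library apart from the rest.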

How the results depend on the processing

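Alternatives were 2 scalings, other minimums, a pseudocount of 0.1 RPKM, a correction for length and each library left out. The number of adhesion genes past 1 RPKM, 6, was 3 at a minimum of 5 RPKM and within 1.5 times under the others. The number 2-fold apart between passages, 0, ranged from 0 to 1 when 1 library was left out, the 1 being Chl1 without technical replicate 1 of either passage, which leaves the passages with unequal mixes. The number 2-fold apart by technical replicate number, 1, was 0 with a minimum of 5 RPKM, which Chl1 does not reach, and 2 relative to genes of similar length and, in an alternative added after seeing the data, for ratios with no pseudocount, in both cases with Cntn2. The mean of Gldn, 85.6 RPKM, reached 261.3 once libraries were rescaled to 1000000, which changes the unit, and between 74.1 and 97.1 RPKM with 1 library left out. Over all genes, the 1 gene 2-fold apart by passage became 4 after rescaling to that sum, 0 with a minimum of 5 RPKM or after the length correction, and 9 to 26 with 1 library left out. The 80 lower and 40 higher genes by number became 242 and 83 after rescaling, 161 and 90 with a pseudocount of 0.1 RPKM, 57 and 26 among genes past 5 RPKM, 110 and 27 relative to length, and 174 and 98 with no pseudocount. After rescaling, the minimum and the pseudocount stayed at 1 while the values rose, and 12406 genes were tested in place of 11025. The counts after rescaling are therefore not effects of the scaling alone. Of 87 differences by number under alternatives, 2 changed sign, both of Cntnap2 with a passage 9 library left out. Of 87 differences by passage 18 changed sign, each with a library left out. No paired analysis was possible because no test was run to which a replicate block could be added, and ratios were instead given within each passage and each technical replicate number. Depth limits Nrcam, Nfasc and Cntnap2, which rest on 13 to 115 reads a library.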

Other observations

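Neighbours of the members in the RefSeq order of GRCr8 were read from the files. Cntn2 and Nfasc are adjacent protein-coding genes, yet they differed in opposite directions by technical replicate number. On the log2(RPKM + 1) scale the differences were 0.82 for Cntn2, -0.10 for Nfasc and -0.026 for Rbbp5 on the other side of Cntn2. The pseudocount shrinks the difference of Nfasc, which had a mean of 0.164 RPKM. Its ratios of technical replicate 2 to 1 were 0.595 and 0.591 at passages 9 and 39, against 1.96 and 2.11 for Cntn2. Chl1 lies between Cntn3, listed at 0, and Cntn6, which was at 0.324 and 0.331 RPKM in technical replicate 1 and at 0.195 and 0.218 RPKM in technical replicate 2. Plekhh3, next to Cntnap1, differed by 0.73, in the direction of Cntnap1, and Ezh1 on its other side by 0.25. Both technical replicate 2 libraries lay above both technical replicate 1 libraries for 57.2% of all genes tested. Nothing is therefore read from this shared direction.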
